A study of Zea mays with 12 samples.

Results

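The genes described here are r1 (colored1, GRMZM5G822829) and c1 (colorless1, GRMZM2G005066), chosen by name as the regulators of anthocyanin pigment in the maize kernel. They are 2 of the 34348 gene rows measured. Whole maize endosperm was used for RNA sequencing, the kernel tissue that holds the starchy endosperm and its pigment-bearing outer layer, the aleurone, at 16 days after pollination. All plants shared the W22 inbred background, were grown in the field and were self-pollinated. 3 genotypes were sampled, with 4 biological replicates each: homozygosity is not given in the labels, and the groups are named only nkd2-Ds, nkd1-Ds and WT. The names of the mutants denote insertions of the transposon Ds in naked endosperm2 or naked endosperm1, duplicate genes for zinc finger transcription factors of the aleurone. Which alleles of r1 and c1 each stock carries, how many independent stocks were used and how many ears went into a replicate is not stated in the labels.

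Anthocyanin is made when a bHLH protein of the r1 family and a MYB protein of the c1 family act together on the promoters of the pigment enzyme genes. In the kernel this pair works in the aleurone, r1 supplying the bHLH protein and c1 the MYB protein, and pigment needs both. The maturation regulator viviparous1 (vp1), which acts with the hormone abscisic acid, is required in turn for c1 to be expressed in the seed.

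Libraries held 35.3 to 48.0 megareads, recovered from the deposited values. Levels are given in RPKM, reads per kilobase of gene and megaread on the authors' library scale. The mutated genes were checked against the labels first. The nkd2 transcript was 1.14 ± 0.141 RPKM in nkd2-Ds and 1.10 ± 0.0780 RPKM in libraries labelled nkd1-Ds, against 19.5 ± 0.762 RPKM in WT (mean ± SD, n = 4). The nkd1 transcript was 35.1 ± 1.57 RPKM in nkd2-Ds and 12.8 ± 1.08 RPKM in libraries labelled nkd1-Ds, against 49.2 ± 3.41 RPKM in WT. With total-reads scaling the difference of nkd1 between nkd2-Ds and WT was not called (-0.31, limma adjusted p = 0.0849). Libraries labelled nkd1-Ds were thus low in both transcripts, and every direction drawn from them below holds for libraries of that kind. In bulk endosperm, fewer cells of a type and less RNA per cell cannot be told apart.

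r1 was nearly silent in WT endosperm, was high and even in libraries labelled nkd1-Ds, and was intermediate and uneven in nkd2-Ds. In nkd2-Ds it had 9.32, 7.88, 10.8 and 3.45 RPKM in replicates 1 to 4. In libraries labelled nkd1-Ds it had 21.2, 20.7, 21.0 and 21.5 RPKM, and in WT 0.0303, 0.139, 0.0631 and 0.0438 RPKM. No group overlapped another, and replicate 4 was the lowest nkd2-Ds library by far. Behind these values lay 2082 reads in nkd2-Ds, 7365 reads in libraries labelled nkd1-Ds and 19 reads in WT, where single libraries held 2, 10, 4 and 3 reads.

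The spread of r1 among replicates differed between the mutants. Its coefficient of variation was 40.4% in nkd2-Ds, where read counting alone would give 4.38%, and 1.55% in libraries labelled nkd1-Ds, where counting would give 2.33%. The highest nkd2-Ds library held 3.14 times the r1 level of the lowest. A wider spread in nkd2-Ds was not limited to r1. Over the measured genes, pairs of nkd2-Ds libraries had a chi-square per gene of 10.1 to 81.7 on recovered reads. Pairs of libraries labelled nkd1-Ds had 8.18 to 14.6. Across all 34348 rows, r1 had a higher mean than 71.2% of genes in nkd2-Ds and 89% in libraries labelled nkd1-Ds, against 4.47% in WT.

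Differences were tested with limma on log2(RPKM + 1) over 26706 genes, and a gene was called at a Benjamini-Hochberg adjusted p under 0.05. On this scale a fold change of a gene near 0 is understated. Between libraries labelled nkd1-Ds and WT, r1 rose by 4.37 ± 0.221 (standard error, adjusted p = 5.33e-09), and its level was 300.01 times as high by reads (95% counting interval 192 to 499). Both r1 and c1 were called in this comparison, as were 55.7% of all genes tested, 26.5% of them higher and 29.2% lower. Between nkd2-Ds and WT, r1 rose by 2.96 ± 0.221 (limma adjusted p = 4.13e-07), a ratio by reads of 110 (70.6 to 184). Here again both genes were called, against 25.5% of all genes, 12% higher and 13.6% lower.

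Set directly against libraries labelled nkd1-Ds, r1 was lower in nkd2-Ds, by -1.41 ± 0.221 (limma adjusted p = 0.000267), a ratio by reads of 0.368 (0.351 to 0.387). This comparison called both genes and 41.8% of all genes, 21.6% higher and 20.2% lower. The counting intervals cover the sampling of reads only and not the spread between plants. For each pair of groups the exact permutation test on r1 gave a two-sided p of 0.0286, the smallest that 4 libraries against 4 allow. The groups did not overlap at 51.1% of all genes between libraries labelled nkd1-Ds and WT, at 26.4% between nkd2-Ds and WT and at 37.9% between the mutants.

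**Figure D1:**
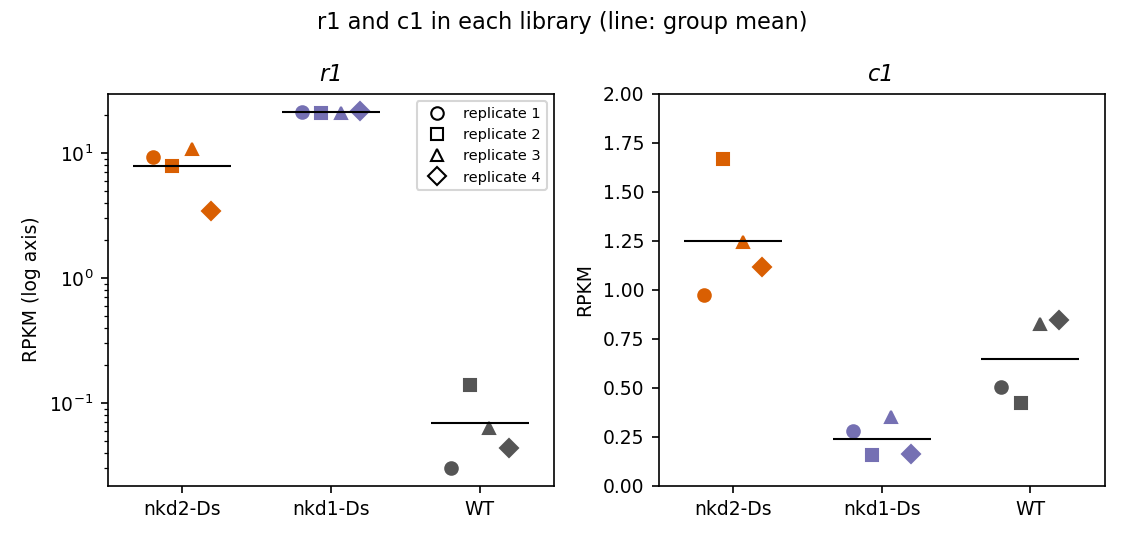
Level of r1 (left, log axis) and c1 (right, linear axis) in RPKM in every library, with groups along the horizontal axis, 1 symbol per replicate and a line at the mean of 4 libraries. r1 reaches 20.7 to 21.5 RPKM in libraries labelled nkd1-Ds and at most 0.139 RPKM in WT, while c1 is highest in nkd2-Ds and lowest in libraries labelled nkd1-Ds.

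c1 did not follow r1. It was higher in nkd2-Ds than in WT and lower in libraries labelled nkd1-Ds, and it stayed a low transcript throughout. In nkd2-Ds c1 had 0.972, 1.67, 1.24 and 1.12 RPKM in replicates 1 to 4. In libraries labelled nkd1-Ds it had 0.277, 0.154, 0.352 and 0.160 RPKM, and in WT 0.501, 0.420, 0.826 and 0.845 RPKM. The 3 groups occupied separate ranges, with WT between the mutants, and in WT replicates 3 and 4 lay above replicates 1 and 2.

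These c1 values rest on few reads. There were 121 reads in nkd2-Ds, 30 reads in libraries labelled nkd1-Ds and 63 reads in WT, and the least covered libraries held 5 reads. The coefficient of variation was 24.0% in nkd2-Ds, 40.7% in libraries labelled nkd1-Ds and 33.8% in WT, and read counting alone would give 18.2% in nkd2-Ds, 36.5% in libraries labelled nkd1-Ds and 25.2% in WT. c1 had a higher mean than 32.1% of all rows in nkd2-Ds and 9.56% in libraries labelled nkd1-Ds, against 21.6% in WT.

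Between libraries labelled nkd1-Ds and WT, c1 fell by 0.41 ± 0.117 on the log2(RPKM + 1) scale (limma adjusted p = 0.00956), a ratio by reads of 0.369 (95% counting interval 0.230 to 0.578). Between nkd2-Ds and WT it rose by 0.45 ± 0.117 (limma adjusted p = 0.013), a ratio of 1.94 (1.42 to 2.67). In nkd2-Ds it lay above libraries labelled nkd1-Ds by 0.86 ± 0.117 (limma adjusted p = 9.28e-05), a ratio of 5.25 (3.50 to 8.12). For each pair the exact permutation test on c1 gave a two-sided p of 0.0286. The first 2 comparisons share the WT libraries.

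The fall of c1 depended on the library scale. The authors' scale equalises the bulk of genes, whereas scaling by total recovered reads moved the median of all genes to 0.43 between libraries labelled nkd1-Ds and WT, 0.12 between nkd2-Ds and WT and -0.30 between the mutants. On that scale c1 differed by -0.25 between libraries labelled nkd1-Ds and WT and was no longer called (limma adjusted p = 0.0805). The rise of c1 in nkd2-Ds over WT stayed called there, at 0.51 (limma adjusted p = 0.00906), as did both rises of r1, at 4.68 and 2.91. c1 entered the test only through nkd2-Ds, where its mean passed 1 RPKM, and r1 only through the mutants, so being tested was itself tied to their high groups.

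Placed side by side, the ratio of r1 to c1 differed between the genotypes. Per length, r1 exceeded c1 by 9.60, 4.73, 8.70 and 3.09 times in nkd2-Ds and by 76.6, 134, 59.7 and 135 times in libraries labelled nkd1-Ds. In WT the order was turned round, and c1 exceeded r1 by 16.5, 3.03, 13.1 and 19.3 times. Single ratios rest on as few as 2 reads of r1 in WT and 5 reads of c1 in libraries labelled nkd1-Ds. The lowest values in nkd2-Ds were 3.45 RPKM for r1 and 0.972 RPKM for c1, given as a description of that group and not as cut-offs.

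**Figure D2:**
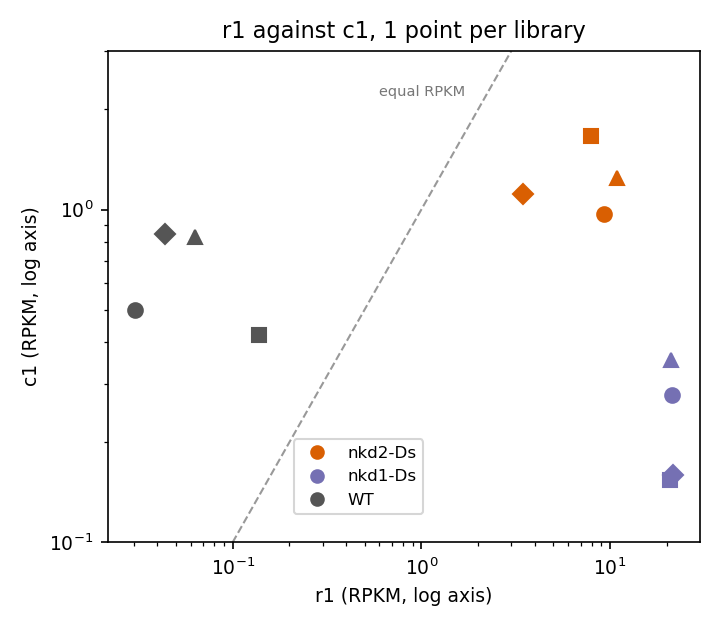
r1 (horizontal, RPKM, log axis) against c1 (vertical, RPKM, log axis), 1 point per library, coloured by genotype with replicate shapes as in the plot by library, and a dashed line where both would be equal. WT libraries lie left of the line with c1 above r1, libraries labelled nkd1-Ds lie at the lower right, and nkd2-Ds libraries lie at the upper right.

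Other regulators of the pathway were sparse in these tables. Of 12 regulator names looked up, r1 and c1 included, 5 had a row. pac1 (GRMZM2G058292), which codes for a WD40 protein that works with the bHLH and MYB pair, averaged 3.49 ± 0.335 RPKM in nkd2-Ds and 3.69 ± 0.320 RPKM in libraries labelled nkd1-Ds, against 3.42 ± 0.395 RPKM in WT (n = 4 each). The groups overlapped and pac1 was called in no comparison, although with total-reads scaling it differed by 0.52 between libraries labelled nkd1-Ds and WT (limma adjusted p = 0.00284) and by -0.37 between the mutants (limma adjusted p = 0.0298). p1, the MYB regulator of red phlobaphene pigment in the pericarp, averaged 0.150 RPKM in nkd2-Ds and 0.475 RPKM in libraries labelled nkd1-Ds, against 0.123 RPKM in WT, too low for the test.

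vp1 followed c1 in libraries labelled nkd1-Ds but not in nkd2-Ds. It had 0.907, 1.69, 1.66 and 2.30 RPKM in nkd2-Ds and 1.01, 0.687, 0.929 and 0.803 RPKM in libraries labelled nkd1-Ds, against 1.74, 1.31, 1.81 and 1.41 RPKM in WT. It fell by 0.47 ± 0.141 in libraries labelled nkd1-Ds (limma adjusted p = 0.0127), but not with total-reads scaling (-0.18, limma adjusted p = 0.365). Between nkd2-Ds and WT it differed by 0.02 ± 0.141 (limma adjusted p = 0.946), with a sign that changed without nkd2-Ds replicates 2 or 4 or WT replicates 2 or 4, each left out alone (lowest value -0.098). Between the mutants it was higher in nkd2-Ds by 0.48 ± 0.141 (limma adjusted p = 0.0147), also lost with total-reads scaling (0.31, adjusted p = 0.14).

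Genes downstream of abscisic acid behaved unlike one another. rab17, a dehydrin gene of seed maturation, was 3.44 ± 0.319 RPKM in nkd2-Ds and 0.325 ± 0.0445 RPKM in libraries labelled nkd1-Ds, against 0.600 ± 0.238 RPKM in WT. It rose by 1.48 ± 0.107 in nkd2-Ds over WT (limma adjusted p = 3.01e-07), having been tested only through nkd2-Ds, its high group. In libraries labelled nkd1-Ds it differed from WT by -0.26 ± 0.107 (limma adjusted p = 0.0535), and it was called lower without WT replicate 2 (-0.37, adjusted p = 0.00329), with a pseudocount of 0.1 RPKM (-0.65, adjusted p = 0.0387) and with quantile normalization (-0.32, adjusted p = 0.013). Of the 5 rows matched among 8 abscisic acid names, 3 were tested. In nkd2-Ds over WT 2 rose and 0 fell, beside 12% and 13.6% of all genes. In libraries labelled nkd1-Ds over WT 1 rose and 1 fell, the last being vp1, beside 26.5% and 29.2% of all genes. The gene that rose in both mutants was rab15, at 378 RPKM in nkd2-Ds and 404 RPKM in libraries labelled nkd1-Ds, against 323 RPKM in WT. Its rise of 0.23 in nkd2-Ds (limma adjusted p = 0.0385) was lost without nkd1-Ds replicate 2, without nkd2-Ds replicates 1, 2 or 4, or without WT replicates 1, 2 or 3, each left out alone (adjusted p = 0.051 to 0.108), and with only the 8 samples compared (adjusted p = 0.0663).

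Most enzymes that the pair switches on were highest in nkd2-Ds and low in libraries labelled nkd1-Ds, namely c2, whp1, fht1, a1, a2 and bz2. bz1 was instead highest in libraries labelled nkd1-Ds, and chi1 was not called against WT in either mutant. Whether these levels followed from those of r1 and c1 was not tested. Of 10 names of pigment enzymes and transport, 8 had a row, and 7 were tested. Between nkd2-Ds and WT, beside 12% higher and 13.6% lower of all genes, 6 were higher, 0 lower and 1 not called. Between libraries labelled nkd1-Ds and WT, beside 26.5% higher and 29.2% lower of all genes, 1 was higher, 1 lower and 5 not called. Of those 5, with a pseudocount of 0.1 RPKM c2 (-1.04, limma adjusted p = 0.00729), a1 (adjusted p = 0.0347) and a2 (-1.06, adjusted p = 0.00823) were called lower, as were c2 (-3.78, adjusted p = 0.0158) and a2 (-3.09, adjusted p = 0.0248) with limma voom on reads. The median log2 difference of the 7 tested was 2.08 in nkd2-Ds over WT and -0.16 in libraries labelled nkd1-Ds over WT. That of all genes was -0.01 and -0.02. Between the mutants 5 were higher and 2 lower in nkd2-Ds, with a median of 2.26, beside 0.02 for all genes. Of all genes, 21.6% were higher and 20.2% lower there. c2, fht1, a1, a2 and bz2 passed the filter on low values only through nkd2-Ds, and bz1 only through libraries labelled nkd1-Ds, so these counts describe the list and lend it no support.

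At the early steps, c2, a chalcone synthase gene at the entry of the flavonoid pathway, had 2.12, 3.75, 3.16 and 5.44 RPKM in nkd2-Ds. In libraries labelled nkd1-Ds c2 had only 2 reads in all, against 37 reads in WT. whp1, the second chalcone synthase gene, was too low for the test, with 150 reads in nkd2-Ds, 0 reads in libraries labelled nkd1-Ds and 4 reads in WT. Counted against a floor of 3 reads over the group, whp1 was at least 65.1-fold higher in nkd2-Ds than in libraries labelled nkd1-Ds.

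fht1, the flavanone hydroxylase gene, was 4.47 ± 1.51 RPKM in nkd2-Ds and 0.0458 ± 0.0223 RPKM in libraries labelled nkd1-Ds, against 0.0294 ± 0.0114 RPKM in WT. chi1, the chalcone isomerase gene, did not share this pattern, with 1.95 ± 0.579 RPKM in nkd2-Ds and 3.01 ± 0.440 RPKM in libraries labelled nkd1-Ds, against 2.53 ± 0.725 RPKM in WT. It was called only between the mutants, at -0.46 (limma adjusted p = 0.0433), a call lost without nkd1-Ds replicates 2, 3 or 4 or nkd2-Ds replicates 1 or 4, each left out alone (adjusted p = 0.0524 to 0.123), and without the filter (adjusted p = 0.0513). With total-reads scaling chi1 was called higher in libraries labelled nkd1-Ds than in WT, at 0.60 (adjusted p = 0.0169).

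Among the late steps, a1, the dihydroflavonol reductase gene, had 6.07, 10.1, 9.68 and 15.5 RPKM in nkd2-Ds, and it rose by 3.14 ± 0.193 over WT (limma adjusted p = 5.74e-08). Its mean was 0.0513 RPKM in libraries labelled nkd1-Ds and 0.239 RPKM in WT. a2 (GRMZM2G345717), the anthocyanidin synthase gene, averaged 4.00 ± 1.30 RPKM in nkd2-Ds and 0.0160 ± 0.0147 RPKM in libraries labelled nkd1-Ds, against 0.149 ± 0.0696 RPKM in WT. The groups did not overlap at a2. bz2, the glutathione transferase gene needed to bring the pigment into the vacuole, averaged 15.8 ± 5.19 RPKM in nkd2-Ds and 0.291 ± 0.0988 RPKM in libraries labelled nkd1-Ds, against 0.798 ± 0.240 RPKM in WT. The lower call of bz2 in libraries labelled nkd1-Ds (-0.47, limma adjusted p = 0.0466) lay at the threshold. It was lost with total-reads scaling (-0.30, adjusted p = 0.273), without the filter (adjusted p = 0.0545) and with voom (adjusted p = 0.0659). It was also lost without any one of nkd1-Ds replicates 1 to 4, nkd2-Ds replicates 2 or 3 or WT replicates 1, 2 or 3 (adjusted p = 0.054 to 0.109).

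bz1 codes for the glucosyltransferase that stabilises the pigment. It alone among the enzymes stood in the same order as r1. It had 0.430, 0.652, 0.843 and 0.978 RPKM in nkd2-Ds and 2.15, 1.33, 1.84 and 2.03 RPKM in libraries labelled nkd1-Ds, against 0.0849, 0.136, 0.177 and 0.0614 RPKM in WT. The 3 groups did not overlap. bz1 rose by 1.34 ± 0.117 in libraries labelled nkd1-Ds over WT (limma adjusted p = 7.56e-07) and by 0.62 ± 0.117 in nkd2-Ds over WT (limma adjusted p = 0.00163), and it was lower in nkd2-Ds than in libraries labelled nkd1-Ds (-0.72 ± 0.117, limma adjusted p = 0.000344). pal1, the phenylalanine ammonia-lyase gene that feeds all phenylpropanoids and the single row matched among 5 such names, stood in this order too, with 1.65 ± 0.283 RPKM in nkd2-Ds and 2.35 ± 0.228 RPKM in libraries labelled nkd1-Ds, against 0.612 ± 0.0413 RPKM in WT. It was called in all 3 comparisons (limma, 0.71 in nkd2-Ds over WT, 1.05 in libraries labelled nkd1-Ds over WT and -0.34 between the mutants).

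**Figure D3:**
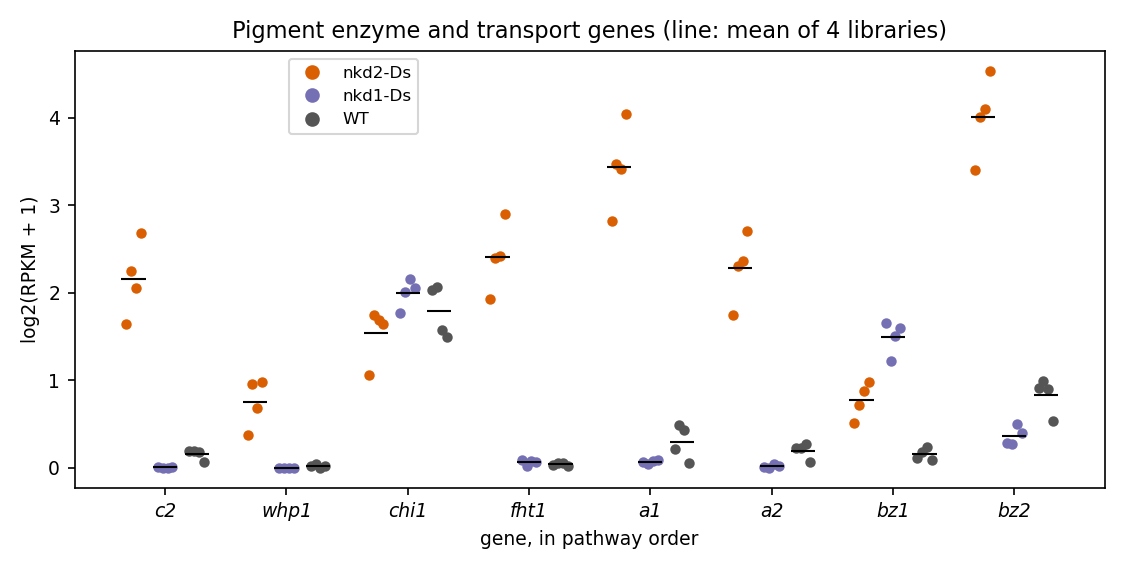
log2(RPKM + 1) of the 8 measured pigment enzyme and transport genes in pathway order, with 1 point per library and a line at the mean of 4 libraries, nkd2-Ds, nkd1-Ds and WT from left to right within each gene. c2, whp1, fht1, a1, a2 and bz2 are high in nkd2-Ds alone, bz1 is highest in libraries labelled nkd1-Ds, and chi1 overlaps WT in both mutants.

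Within nkd2-Ds the enzymes did not track r1 from library to library. Of the 8 enzyme rows, 8 were lowest in replicate 1 and 7 were highest in replicate 4, the exception at the top being chi1. The share of all genes in that order was not counted, and the enzyme rows are not independent of one another. Over the measured genes, replicates 1 and 4 of nkd2-Ds were the least alike pair within any genotype (chi-square per gene of 81.7 on recovered reads). r1 was lowest in replicate 4, at 0.370 times its level in replicate 1, whereas a1 stood in replicate 4 at 2.55 times and bz2 at 2.32 times its level in replicate 1. c1 was likewise lowest in replicate 1 but highest in replicate 2, with 1.15 times its replicate 1 level in replicate 4. vp1 had the enzymes' order, at 2.53 times. In WT, c2, chi1, fht1, a1, a2, bz1 and bz2 each had their lowest value in replicate 4, and whp1 in replicate 3. WT held only 6 reads of fht1 and 4 reads of whp1, too few to rank its libraries. c1 was highest in WT replicate 4, at 0.845 RPKM from 21 reads. WT replicate 3 was close, at 0.826 RPKM from 19 reads, and read counting does not separate them. Any relation between c1 and the enzymes among the WT libraries was not tested.

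**Figure D4:**
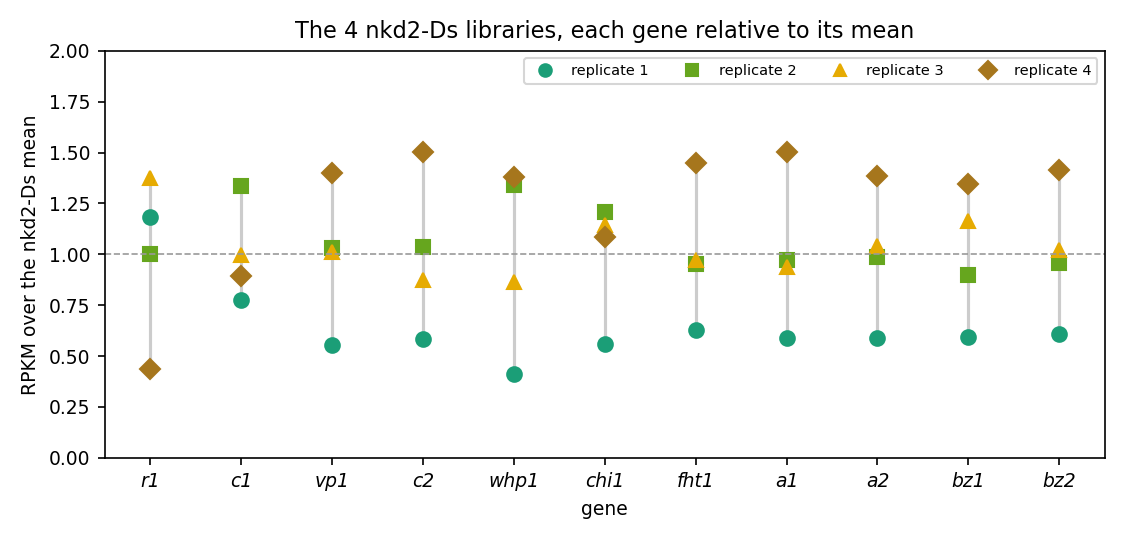
Level of each regulator and enzyme gene in the 4 nkd2-Ds libraries, divided by that gene's mean over the 4 (dashed line at 1), with 1 symbol and colour per replicate. Replicate 4 lies lowest for r1 and highest for vp1 and 7 of the 8 enzyme genes, and replicate 1 lies lowest for c1, vp1 and all 8 enzyme genes.

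Markers of other kernel tissues varied among the same libraries. The summed level of 4 embryo marker rows was 128, 164, 204 and 239.8 RPKM in nkd2-Ds replicates 1 to 4, lowest and highest in the same libraries as the enzymes. It ranged from 68.5 to 98.9 RPKM in libraries labelled nkd1-Ds and from 80.4 to 94.3 RPKM in WT. Of these 4 rows, 2 were higher in nkd2-Ds than in WT (the globulin gene glb1 and the oleosin gene ole16) and 0 lower, and none was at 0. Of all genes, 12% were higher and 13.6% lower in that comparison. The order among nkd2-Ds libraries came from glb1 and ole16. Of the other rows, lg3 was highest in replicate 1, at 4.21 RPKM, and wox2a highest in replicate 3, at 7.19 RPKM. lg3 rose in libraries labelled nkd1-Ds over WT by 1.12 ± 0.173 (limma adjusted p = 0.000117). Summed basal transfer layer markers, 6 rows, were 23.8, 152, 120 and 337 RPKM in nkd2-Ds. They spanned 86.3 to 188 RPKM in libraries labelled nkd1-Ds and 70.7 to 340 RPKM in WT. Of the 6 rows 0 were called in any comparison. Of all genes, 55.7% were called in nkd1-Ds over WT, 25.5% in nkd2-Ds over WT and 41.8% between the mutants. Summed markers of the embryo-surrounding region, 3 rows, were 0.264, 3.34, 7.11 and 19.5 RPKM in nkd2-Ds, 3.32 to 6.88 RPKM in libraries labelled nkd1-Ds and 2.14 to 6.37 RPKM in WT. The part of these markers in the levels of c1 and the enzymes was not tested.

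Aleurone markers, 6 rows with none at 0, also varied. They summed to 119.6, 132, 130.3 and 136 RPKM in nkd2-Ds replicates 1 to 4. The sum was again lowest in replicate 1 and highest in replicate 4, an order that the single rows did not all share. The sums ranged from 94.2 to 108 RPKM in libraries labelled nkd1-Ds and from 154 to 165 RPKM in WT. They include the mutated genes nkd1 and nkd2, which alone summed to 34.5 to 38.3 RPKM in nkd2-Ds. These 2 rows summed to 13.2 to 15.4 RPKM in libraries labelled nkd1-Ds and 64.2 to 72.6 RPKM in WT. The separation of the 3 groups in the full sum therefore says nothing about the other aleurone markers. Of the 6 rows 2 were called lower than in WT in each mutant, nkd1 and nkd2 themselves. In libraries labelled nkd1-Ds 1 row was higher, and in nkd2-Ds 0 were. Of all genes, 26.5% were higher and 29.2% lower in nkd1-Ds over WT, and 12% higher and 13.6% lower in nkd2-Ds over WT. vpp1, a vacuolar proton pump gene, had 32.9, 45.3, 44.0 and 55.6 RPKM in nkd2-Ds, the same lowest and highest library. It averaged 44.4 ± 9.32 RPKM in nkd2-Ds and 38.9 ± 4.78 RPKM in libraries labelled nkd1-Ds, against 44.2 ± 2.50 RPKM in WT, and was not called in either mutant. dek1, which is required for aleurone identity, rose in libraries labelled nkd1-Ds by 0.43 ± 0.0882 (limma adjusted p = 0.00109). In nkd2-Ds dek1 was lowest in replicate 4, at 12.3 RPKM, and highest in replicate 2, at 17.1 RPKM. The marker sal1 was highest in replicate 1, at 35.6 RPKM, and lowest in replicate 4, at 30.6 RPKM. The marker cr4 went with vpp1, at 1.24 RPKM in replicate 1 and 1.48 RPKM in replicate 4. The order of the sum was thus that of vpp1, the row with the widest spread, and not of the whole list. Summed starchy endosperm markers, 11 rows of storage and starch genes, were 144369, 103860, 95642 and 94198 RPKM in nkd2-Ds replicates 1 to 4. This sum was highest in replicate 1 and lowest in replicate 4, opposite to most enzymes. Its single rows did not all share that order, and o2 was highest in replicate 3, at 431 RPKM. The starchy endosperm sum ranged from 67627 to 77824 RPKM in libraries labelled nkd1-Ds and from 100513 to 119984 RPKM in WT. The 3 pericarp and green tissue rows, none at 0, summed to 1.54 to 2.13 RPKM in nkd2-Ds and 1.99 to 2.46 RPKM in libraries labelled nkd1-Ds, against 1.25 to 1.76 RPKM in WT. psah1, a photosystem I gene, stood in the order of r1, at 0.587 RPKM in nkd2-Ds and 1.12 RPKM in libraries labelled nkd1-Ds, against 0.238 RPKM in WT. It was called higher in both mutants over WT (limma, 0.36 in nkd2-Ds and 0.77 in libraries labelled nkd1-Ds) and was tested only through libraries labelled nkd1-Ds. psad1, another photosystem I gene, was at 1.01 RPKM in nkd2-Ds and 0.580 RPKM in libraries labelled nkd1-Ds, against 1.15 RPKM in WT, and was called lower in libraries labelled nkd1-Ds than in WT (-0.45, limma adjusted p = 0.00509). The part of these rows in the levels of r1 and c1 was not tested.

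r1 lies near nkd2 in the genome. In the gene order of the RefSeq annotation of assembly NAM-5.0, nkd2 is the 9th placed and measured gene from r1 on the same chromosome, whereas c1 shares a chromosome with neither nkd1 nor nkd2, nor does r1 share one with nkd1. Since the sources used here give no build for the deposited values, only order is used. Both groups in which r1 was high were low in nkd2 transcript, so a lower nkd2 and whatever r1 segment lies beside the nkd2 allele cannot be told apart.

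No tested neighbour of r1 rose as far as r1 did. Of the 20 nearest placed and measured genes, 10 on each side and nkd2 among them, 15 were tested. In libraries labelled nkd1-Ds over WT 4 were higher, 5 lower and 6 not called, and in nkd2-Ds over WT 2 were higher, 4 lower and 9 not called, with medians of -0.01 and -0.02. Over all genes 26.5% were higher and 29.2% lower in the first comparison, and 12% higher and 13.6% lower in the second. The largest rises among them were 0.57 and 0.72, both at GRMZM5G884600, 2 places from r1, which averaged 26.4 RPKM in nkd2-Ds and 23.6 RPKM in libraries labelled nkd1-Ds, against 15.8 RPKM in WT. The nearest genes were GRMZM2G344476 and isr. GRMZM2G344476 averaged 9.96 RPKM in nkd2-Ds and 8.35 RPKM in libraries labelled nkd1-Ds, against 10.9 RPKM in WT, and isr averaged 0.159 RPKM in nkd2-Ds and 0.125 RPKM in libraries labelled nkd1-Ds, against 0.189 RPKM in WT. Around c1, 13 of 20 neighbours were tested, and 4 were higher and 5 lower in libraries labelled nkd1-Ds over WT, and 1 was higher and 2 lower in nkd2-Ds over WT, beside the same shares of all genes. Of the genes next to c1, GRF11 had 2 reads in nkd2-Ds, 7 reads in libraries labelled nkd1-Ds and 0 reads in WT, and GRMZM2G033130 averaged 21.5 RPKM in nkd2-Ds and 20.4 RPKM in libraries labelled nkd1-Ds, against 20.3 RPKM in WT.

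**Figure D5:**
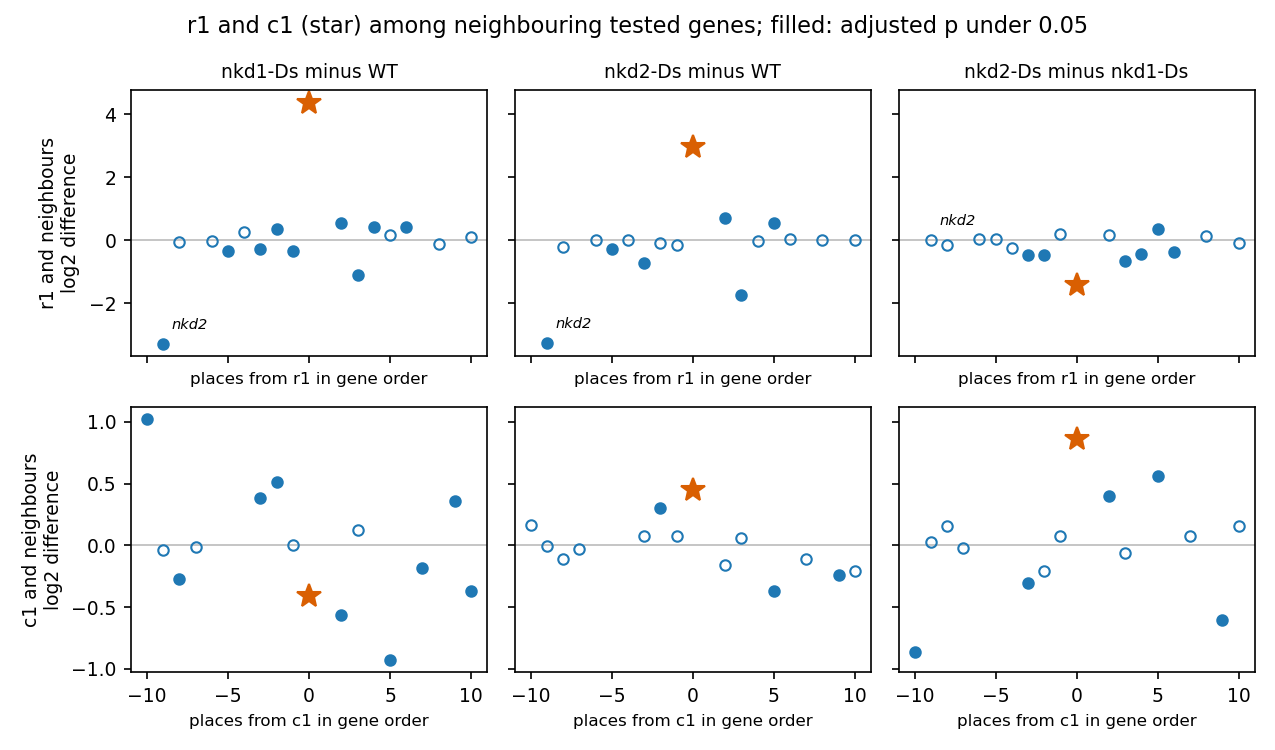
log2 difference (RPKM + 1 scale) of r1 (upper row) and c1 (lower row), drawn as stars, and of the tested genes within 10 places of each in gene order, for the 3 comparisons named above the panels. Filled points passed an adjusted p under 0.05. r1 stands at 4.37 and 2.96 over WT while no neighbour exceeds 0.72. c1 lies within the range of its own neighbours in the comparison of nkd1-Ds with WT. In nkd2-Ds over WT c1 stands at 0.45, above its highest neighbour at 0.31. Between the mutants c1 stands at 0.86, with neighbours from -0.86 to 0.56.

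Profiles over all 12 libraries were compared after scaling log2(RPKM + 1) of each gene from 0 to 1, for the 7224 tested genes whose range was at least 1 log2 unit. The distance is the mean absolute difference between scaled profiles, given as a description of libraries that share 3 genotypes. The 5 genes nearest to r1 lay within a distance of 0.0598. GRMZM2G308365, the second nearest at 0.0515, averaged 3.01 RPKM in nkd2-Ds and 6.34 RPKM in libraries labelled nkd1-Ds, and only 0.0133 RPKM in WT, so it was nearly silent in WT as r1 was. The others averaged 6.04, 0.151, 1.53 and 3.85 RPKM in WT, in order of distance, since the scaling removes the level. The nearest, GRMZM2G181453, averaged 9.99 RPKM in nkd2-Ds and 12.8 RPKM in libraries labelled nkd1-Ds. The 5 genes nearest to c1 lay at 0.0870 to 0.0963, the first being GRMZM2G061743, with 2.95 RPKM in nkd2-Ds and 0.0349 RPKM in libraries labelled nkd1-Ds, against 0.947 RPKM in WT. r1 and c1 lay 0.495 apart, with c1 in place 4111 from r1. Of the enzymes, bz1 was the nearest to r1, in place 327, and bz2 the nearest to c1, in place 229, while bz1 was in place 6107 from c1.

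The row used for r1 carries several names in the RefSeq table, among them those of the r1 copies Lc and Sn, so reads of near-identical copies at this complex locus cannot be told apart. Looked up by name, b1, lc1, sn1, pl1, in1, p2 and a3 gave no separate row.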

How the data were processed

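Strand-specific poly(A) RNA libraries were sequenced, per the labels' protocols. Per the submitters' processing notes the tools were FastQC, featureCounts, TopHat2 2.1.1 and Cufflinks 2.2.1, with neither role nor order stated, while genome build, annotation and strand setting are absent from the sources used here. The tables deposited by the authors hold 1 value per gene and library, judged from the values to be RPKM. Each gene's values were whole multiples of 1 read within 0.02 reads at 34307 of 34307 genes above 0, which gave read numbers and gene lengths (r1 2317 bases, c1 841 bases).

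limma 3.58.1 (R 4.3.3) with a mean trend was fitted to log2(RPKM + 1) in all 12 libraries by genotype, for 26706 genes with a group mean of at least 1 RPKM. p-values were Benjamini-Hochberg adjusted over these genes, the steps having been tested on simulated data. Permutation tests used scipy 1.17.1. Alternatives were another pseudocount (0.1), other filters and scalings, limma voom on recovered reads (15060, 6660 and 11308 genes called, against 14877, 6823 and 11157 on log2(RPKM + 1) in nkd1-Ds over WT, nkd2-Ds over WT and nkd2-Ds over nkd1-Ds), a replicate block and leaving out each library.

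Symbols were matched through the RefSeq table of NAM-5.0, in which 13910 of 34348 identifiers matched 1 row. Rows that carried pac1, a2, mrp1 or esr1 only as a secondary name were left out after matching. The named genes are all matched regulators and enzymes, the called abscisic acid and phenylpropanoid genes, the nearest neighbours in gene order and the nearest profiles. The members, lists and rules were chosen with earlier results of these data known.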

Additional observations from a re-analysis of the deposited data

Results flagged for a closer look

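Of 59 groups of 4 libraries checked among the named genes, 2 held a library whose gap to the nearest of the others exceeded Dixon's limit, and chance flags about 1 in 20 groups. c2 was lowest in WT replicate 4, at 0.0511 RPKM, where the other WT libraries held 0.138 to 0.146 RPKM. vp8, a gene whose mutants germinate early, was lowest in nkd1-Ds replicate 4, at 0.509 RPKM, where the other libraries labelled nkd1-Ds held 0.713 to 0.734 RPKM. No library of r1 or c1 passed that limit, nkd2-Ds replicate 4 of r1 included.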

How the results depend on the processing

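Every r1 and c1 difference kept its direction under every alternative that gave a value, and all kept their call except c1 in nkd1-Ds against WT under scaling by total reads (-0.25). Under that scaling 4527 genes were called in nkd2-Ds against WT, instead of 6823, and the share of calls that were higher moved to 89.2% in nkd1-Ds against WT (47.6% on the authors' scale), 72.4% in nkd2-Ds against WT (46.9%) and 10.1% in nkd2-Ds against nkd1-Ds (51.6%). The size of each difference depended on the pseudocount: with 0.1 RPKM, r1 gave 7.01 and 5.48 and c1 -1.15 and 0.87 in nkd1-Ds and nkd2-Ds over WT. Leaving out 1 library at a time, r1 ranged from 4.35 to 4.40 in nkd1-Ds over WT, from 2.80 to 3.27 in nkd2-Ds over WT and from -1.58 to -1.11 between the mutants. c1 ranged from -0.48 to -0.35, 0.36 to 0.51 and 0.77 to 0.92 in the same comparisons, and the genes called numbered 13646 to 15073, 5340 to 6979 and 9684 to 11045. c1 gave no value with a mean of at least 1 RPKM required over all libraries, nor, in nkd1-Ds against WT, with only the 8 samples compared. Same-numbered libraries did not deviate together (correlations of -0.276 to 0.125, 1 of 12 pairs over 0.1), so the numbers were not taken to pair them. The replicate block kept r1 at 4.37, 2.96 and -1.41 and c1 at -0.41, 0.45 and 0.86, all called, with 14282, 6039 and 10365 genes called. Under it the calls of bz2 in nkd1-Ds over WT (limma adjusted p = 0.0608), rab15 in nkd2-Ds over WT (0.0817) and chi1 between the mutants (0.0565) were lost. Few other named genes changed sign. Under total-reads scaling GRMZM2G344476 gave 0.15 in nkd1-Ds over WT, against -0.35 on the authors' scale, 0.013 in nkd2-Ds over WT and -0.13 between the mutants. Differences uncalled on the authors' scale changed sign under it too. GRMZM2G105801 gave 0.028 in nkd2-Ds over WT. Between the mutants nkd2 gave -0.18, GRMZM5G884600 -0.21 and GRMZM2G033130 -0.30 (limma adjusted p = 0.0203). Under quantile normalization fht1 gave -0.060 in nkd1-Ds over WT. Without single libraries, vp1 ranged from -0.10 to 0.16 and pac1 from -0.018 to 0.073 in nkd2-Ds over WT, nkd2 from -0.0021 to 0.066 between the mutants and GRMZM2G033130 from -0.027 to 0.029 in nkd1-Ds over WT. The causes of these changes were not tested. Depth limits c1, with as few as 5 reads in a library, and r1 in WT, with as few as 2.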

Other observations

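2 rows that carry a pathway name only as a secondary name were not used above. The second pac1 row (GRMZM2G058432) averaged 23.0 RPKM in nkd2-Ds and 23.5 RPKM in libraries labelled nkd1-Ds, against 30.2 RPKM in WT. The second a2 row (GRMZM6G474234) averaged 8.31 RPKM in nkd2-Ds and 4.77 RPKM in libraries labelled nkd1-Ds, against 8.74 RPKM in WT, and so did not show the near absence of the a2 row described with the enzymes. vp8 was too low for the test, at 0.132 RPKM in nkd2-Ds and 0.670 RPKM in libraries labelled nkd1-Ds, against 0.132 RPKM in WT.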
